A study of Mus musculus with 14 samples.

Results

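The nuclear genes of mitochondrial complex I were followed by RNA sequencing in brain tissue of 14 female mice. A gene was taken when its symbol began with Nduf, went on with a, b, c, s, v, ab or af and ended in a number, and pseudogenes were left out. This rule used names only, with no measured value, and found 44 of the 43346 genes in the count table. The 44 genes were 7 core subunits, 9 accessory subunits of the peripheral arm, 9 of the proximal and 10 of the distal membrane arm, the acyl carrier protein Ndufab1, Ndufa4, and 7 assembly factors named Ndufaf. All 44 passed the filter on low counts in each comparison. The mice were of strain C57BL/6;SJL-Tg and 23 months old. The first group was 4 NTG (wild type; non-transgenic) mice. The second was 5 mice with the genotype APP/PS1 +/+, which carry familial Alzheimer's disease mutations in APP and PS1. Both groups are labelled non-treated and drank water with the vehicle PEG. The third was 5 APP/PS1 +/+ mice given CP2, a tricyclic pyrone that inhibits complex I, at 25 mg/kg/day in drinking water with PEG from the age of 9 months, for 14 months. The promoters that drive the transgenes are not given in the sources used here. NTG mice given CP2 are not analysed here, so the effect of CP2 could be read only in mice with the transgenes. Each library came from 1 mouse and is named by its number: 7 to 10 in NTG, 16 to 20 in vehicle-treated APP/PS1 and 21 to 25 in CP2-treated APP/PS1 mice.

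Complex I oxidises NADH, passes the electrons to ubiquinone and pumps protons across the inner mitochondrial membrane, which makes it the main entry to the respiratory chain. Its peripheral arm, in the matrix, carries the flavin and the iron-sulfur clusters, and its membrane arm holds the proton channels. The core subunits do the chemistry and are shared with bacteria. Accessory subunits surround them and are needed for a stable complex, and assembly factors bind unfinished modules and leave before the complex is complete. Neurons depend heavily on this chain, and the enzyme is the direct target of CP2. RNA counts do not measure the amount or the activity of the enzyme.

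Total counts per mouse lay between 70548781 and 106235625. Levels are given as CPM, the counts scaled to a common library total after correction by the TMM factor (0.953 to 1.03). The genes Yam1 and AY036118, which resemble ribosomal RNA, took 2.40 to 7.50% of the counts. No replicates were identical (26 pairs, lowest chi-square per degree of freedom 9.87). As a check of the labelled tissue, 7 of 7 cortical and hippocampal and 10 of 10 neuronal marker genes had counts in every mouse. The 10 striatal, 6 thalamic and 4 choroid plexus markers did too, so this check does not single out the labelled regions. Mouse 16, in the vehicle-treated APP/PS1 group, stood apart with a summed level of 2642 CPM over 10 striatal markers, against 208.6 to 398 CPM in the other mice. NTG mouse 7 stood apart in 3 of 4 markers of the cerebellum. It had 80.8 CPM for Gabra6 (11.4 CPM or less in the other mice), 78.5 CPM for Cbln1 (4.13 to 28.3 CPM) and 24.5 CPM for Pcp2 (3.04 to 6.22 CPM). Calb2, of the same list, did not stand apart, with 89.4 CPM in mouse 7 and 85.6 CPM in NTG mouse 10. Gabra6 was also 11.4 and 4.22 CPM in vehicle-treated mice 18 and 19, so it was not confined to mouse 7. The counts and medians of the members are also given without each of these mice. The 37 genes of the mitochondrial chromosome, with the 7 complex I subunits encoded there, had 0 counts in every mouse, so only the nuclear side of the complex could be described. No label says which mice shared a litter or cage. The paper states that mice were housed several to a cage, with CP2 in the drinking water, so treated mice may have shared a cage and its water. An effect of cage could then not be told apart from the treatment, and it was not tested. The p-values take each mouse as independent and measure the spread between these mice.

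Every member was measured with many counts, from 443 for Ndufaf6 in its lowest mouse to 19683 for Ndufa4 in its highest. Levels of different genes were compared per length, with the authors' RPKM (reads scaled to the length of the gene model and the depth of the library), as a description without a test. The highest level was that of Ndufa4, with a median of 275 RPKM over 14 mice and a range from 218 to 367. Ndufb9 followed with a median of 146 RPKM over 14 mice and a range from 120.1 to 169. Ndufa6 came next with a median of 93.5 RPKM over 14 mice and a range from 76.4 to 122. Ndufa4, first assigned to complex I, was later found to be part of cytochrome c oxidase, Ndufb9 is a subunit of the distal membrane arm, and Ndufa6 sits in the peripheral arm near the ubiquinone site. At the other end were Ndufaf6 with a median of 4.11 RPKM (3.54 to 4.63), Ndufab1 with 4.83 RPKM (4.41 to 5.21) and Ndufaf4 with 5.75 RPKM (5.18 to 6.46). Ndufaf6 and Ndufaf4 act in assembly, and Ndufab1 is the mitochondrial acyl carrier protein, which is bound at 2 places in the complex. The range of Ndufa4 over the mice overlapped with no other member, and those of Ndufb9 and Ndufa6 met at their ends. In the middle of the order neighbours overlapped, and the ranks from Ndufa8 (59.0 RPKM) to Ndufb3 (50.9 RPKM) had ranges that all overlapped each other. Core subunits had median RPKM values of 55.6 for Ndufs8, with lower values for Ndufv1 (41.7), Ndufv2 (40.3), Ndufs7 (35.6), Ndufs3 (21.9) and Ndufs1 (15.01).

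The order depends on the length assigned to each gene. The table's length exceeded 2 times the length of the principal transcript in GENCODE M21 for 7 members. With that transcript length in place of the table's, an alternative chosen after seeing the data, Ndufb8 moved from rank 23 to rank 3, Ndufa11 from 29 to 5, Ndufb5 from 35 to 13 and Ndufb7 from 40 to 19. Ndufa4 and Ndufb9 kept ranks 1 and 2, and Ndufaf6 kept rank 44. The low rank of Ndufab1, an essential carrier protein, was 41 by the transcript length of 3479 bases. By median CPM, which takes no account of length, Ndufab1 had rank 32. Where principal transcripts tied, the longest was taken. Within a gene the length is the same in all mice, so these shifts do not touch the comparisons between groups.

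**Figure D1:**
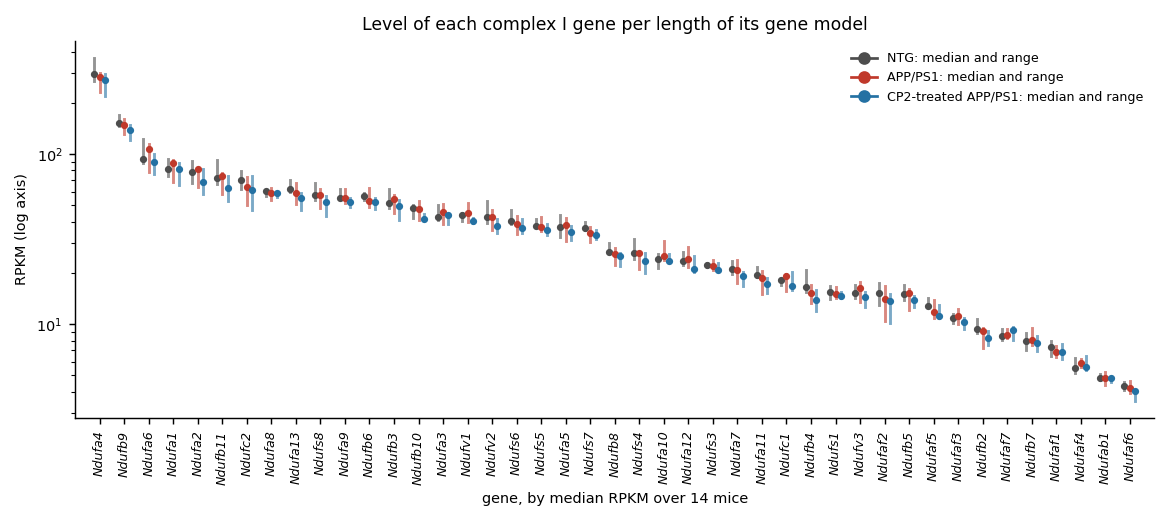
RPKM of 43 of the 44 genes on a log axis, ordered by the median over 14 mice, with the median (point) and range (line) of the 4 NTG, 5 APP/PS1 and 5 CP2-treated APP/PS1 mice. Levels run from 275 RPKM for Ndufa4 to 4.11 RPKM for Ndufaf6, and for most genes the ranges of the 3 groups overlap.

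Many members were high or low in the same mice. For each gene the log2 CPM in a mouse was set against the gene's mean over the 14 mice, and the median of these deviations over the 44 genes was taken per mouse. It was 0.22, 0.13, 0.07 and -0.002 in NTG mice 7, 8, 9 and 10. In vehicle-treated APP/PS1 mice 16 to 20 it was -0.03, 0.07, 0.07, 0.01 and -0.14. CP2-treated APP/PS1 mice 21 to 25 had medians of -0.07, 0.006, 0.03, -0.15 and -0.20. Mouse 7 thus had the highest and mouse 25 the lowest median, and the 3 groups overlapped. Mouse 7 held the highest CPM of all 14 mice for 34 of 44 genes, and mouse 25 the lowest for 29 of 44. Mouse 7 is the library highest in cerebellar markers, and their part in its levels was not tested. The summed level of the 44 genes was 2917 ± 211 CPM in NTG (SD, n = 4), 2711 ± 153 CPM in APP/PS1 (n = 5) and 2569 ± 171 CPM after CP2 (n = 5). The group means were highest in NTG and lowest in CP2-treated mice. Ranges of the groups overlapped.

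Nuclear subunits of complexes II to V, the rest of the respiratory chain and ATP synthase, had similar values in each mouse. Their median deviation over 38 genes was 0.25 in mouse 7, 0.14 in mouse 8, -0.15 in mouse 24 and -0.25 in mouse 25, close to the values of the complex I genes. By role, mouse 7 had median deviations of 0.16 for core subunits, 0.27 for the peripheral arm, 0.21 for the proximal and 0.26 for the distal membrane arm and 0.14 for assembly factors. In mouse 25 these were -0.14, -0.23, -0.18, -0.22 and -0.11.

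**Figure D2:**
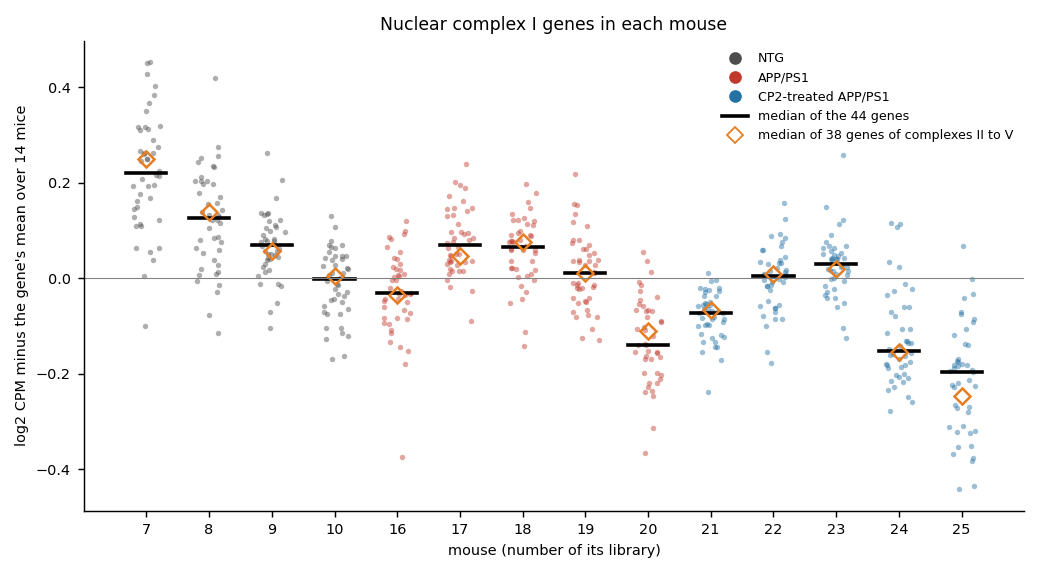
Log2 CPM of each of the 44 genes minus its mean over 14 mice (points), by mouse, with the median of the 44 genes (black line) and of 38 nuclear genes of complexes II to V (open diamond). Mouse 7 has the highest median (0.22) and mouse 25 the lowest (-0.20), and the diamonds follow the black lines.

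Members differed in how much they varied between mice. The SD of log2 CPM over the 14 mice had a median of 0.13 over the 44 genes. It was largest for Ndufaf2 (0.25), an assembly factor, for Ndufc2 (0.23), of the proximal membrane arm, and for Ndufb11 (0.21) and Ndufb4 (0.20), of the distal membrane arm. The steadiest genes were Ndufs3 (0.06), a core subunit of the module that binds ubiquinone, Ndufab1 (0.06) and Ndufa8 (0.07). For Ndufs3 the highest mouse had 1.14 times the level of the lowest, and for Ndufc2 1.82 times.

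Genes of the respiratory chain are known to carry sites for NRF1, for ETS factors such as GABPA and for YY1. Promoter sequences are shown for 4 members, chosen by p-value and motif. They are Ndufb10, the member with the smallest p between CP2-treated and NTG mice, and the members with the smallest p in that comparison among those with an NRF1 core (Ndufa11), an ETS core (Ndufb6) and a YY1 core (Ndufs7). The windows are RefSeq sequence of build GRCm38.p6, 5′ to 3′ on the strand of the gene, from 250 bases before the start of transcription to 50 bases after it. Ndufb10 lies at chr17:24724374-24724673 on the minus strand, Ndufa11 at chr17:56717512-56717811 on the plus strand, Ndufb6 at chr4:40279372-40279671 on the minus strand and Ndufs7 at chr10:80249199-80249498 on the plus strand. Capitals mark matches to the motifs searched.
Ndufb10: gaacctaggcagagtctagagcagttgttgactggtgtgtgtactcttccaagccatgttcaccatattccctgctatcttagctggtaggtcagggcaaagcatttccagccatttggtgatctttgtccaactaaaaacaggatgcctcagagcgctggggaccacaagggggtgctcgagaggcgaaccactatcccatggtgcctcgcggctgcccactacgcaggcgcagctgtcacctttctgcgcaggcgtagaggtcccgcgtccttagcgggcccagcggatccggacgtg
Ndufa11: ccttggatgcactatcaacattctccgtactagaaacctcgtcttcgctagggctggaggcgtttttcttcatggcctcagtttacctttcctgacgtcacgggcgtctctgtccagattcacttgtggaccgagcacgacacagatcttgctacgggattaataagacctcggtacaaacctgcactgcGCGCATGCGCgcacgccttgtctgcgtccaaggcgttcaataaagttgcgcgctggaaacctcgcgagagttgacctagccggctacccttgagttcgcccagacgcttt
Ndufb6: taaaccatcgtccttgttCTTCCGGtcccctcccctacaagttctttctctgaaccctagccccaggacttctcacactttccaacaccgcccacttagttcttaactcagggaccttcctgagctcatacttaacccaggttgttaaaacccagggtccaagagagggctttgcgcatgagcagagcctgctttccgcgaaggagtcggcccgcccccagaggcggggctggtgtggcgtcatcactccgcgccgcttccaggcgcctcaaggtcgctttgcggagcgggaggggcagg
Ndufs7: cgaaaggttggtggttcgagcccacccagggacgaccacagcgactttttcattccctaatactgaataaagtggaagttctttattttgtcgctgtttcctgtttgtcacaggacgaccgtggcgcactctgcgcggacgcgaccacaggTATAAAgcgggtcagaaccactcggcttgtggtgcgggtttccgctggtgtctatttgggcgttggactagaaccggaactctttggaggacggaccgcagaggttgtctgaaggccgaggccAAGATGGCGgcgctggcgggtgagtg

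A set of 6 short motifs was searched on both strands in 41 windows of 39 members and in all 32851 windows of the table, and 5 members without a window, among them Ndufa2, Ndufaf6, Ndufb9 and Ndufs1, were not searched. The NRF1 core GCGCATGC was found in 5 of 41 member windows (12.2%) and in 2.71% of all windows. In Ndufa11 its match begins 60 bases before the start and overlaps a match on the other strand, as the letters of the motif are nearly the same on both. The ETS core CCGGAAG was found in 5 of 41 member windows (12.2%) and 8.86% of all, and in Ndufb6 it lies 232 bases before the start on the other strand. The YY1 core AAGATGGCG was found in 5 of 41 (12.2%) and 1.4% of all, and in Ndufs7 it begins 25 bases into the transcript, with a TATAAA 99 bases before the start. No member held more than 1 of these 3 motifs, and 15 members held 1. The element TCAAGGTCA bound by ERR factors was in 0 of 41 member windows and 0.423% of all, CCAAT in 13 of 41 (31.7%) and 37.4% of all, and TATAAA in 5 of 41 (12.2%) and 13.6% of all. The window of Ndufb10 held none of the 6. A match is a description of the letters only.

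The first comparison, vehicle-treated APP/PS1 against NTG mice, asked what the transgenes changed. Complex I genes were mostly lower in APP/PS1 mice by small amounts, and none passed the adjusted test. The log2 fold change was below 0 for 41 of 44 members, against 51.2% of all 16417 genes tested, with a median of -0.10 for the members and -0.004 for all genes. At an unadjusted p under 0.05, 7 members were lower (background 8.05%) and 0 higher (background 10.6%). Adjusted over all genes, 0 of 44 were lower in edgeR (background 1.34%) and 1, Ndufs7, in DESeq2. Of all 16417 genes, edgeR called 932 and DESeq2 1667 in either direction. CPM did not overlap between the groups for 2 of 44 members, Ndufs7 and Ndufaf6, both lower in APP/PS1. That share is close to the background of 3.82% over all genes.

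Among the core subunits, 1 was lower at an unadjusted p under 0.05 (background 8.05%). This was Ndufs7, which carries the last iron-sulfur cluster before ubiquinone. The CPM of Ndufs7 was 83.9, 79.4, 78.2 and 75.9 in NTG mice 7 to 10 and 68.5, 73.4, 72.5, 71.9 and 64.8 in vehicle-treated mice 16 to 20. Every APP/PS1 mouse was below every NTG mouse. This gave a log2 fold change of -0.18 (SE 0.05, 95% interval -0.29 to -0.06, unadjusted p = 0.00568, adjusted p = 0.0763). Fitted log2 fold changes of other core subunits were -0.14 for Ndufv2, -0.12 for Ndufs8, -0.08 for Ndufs3, -0.06 for Ndufs1 and -0.02 for Ndufv1.

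The log2 fold change was below 0 for 9 of 9 accessory subunits of the peripheral arm. It was below 0 for 8 of 9 of the proximal and 9 of 10 of the distal membrane arm. No test of a difference between the arms was made. At an unadjusted p under 0.05, 0 of 9, 3 of 9 and 3 of 10 subunits of these arms were lower (background 8.05%). In the distal membrane arm these were Ndufb8, Ndufb2 and Ndufb4. For Ndufb8, NTG mice 7 to 10 had 116, 108, 104 and 99.8 CPM and vehicle-treated mice 16 to 20 had 87.04, 95.5, 102, 99.3 and 86.9 CPM. The lowest NTG mouse lay below 1 APP/PS1 mouse. The difference was -0.18 on the log2 scale (SE 0.07, 95% interval -0.33 to -0.03, unadjusted p = 0.0204, adjusted p = 0.165). Ndufb4 had 29.98, 26.2, 23.6 and 21.7 CPM in NTG mice 7 to 10 and 21.2, 22.7, 22.9, 21.6 and 19.5 CPM in vehicle-treated mice 16 to 20. NTG mice 7, 8 and 9 were above all APP/PS1 mice, and mouse 10 was among them. By edgeR the log2 fold change came to -0.23 (SE 0.09, 95% interval -0.44 to -0.03, unadjusted p = 0.0315, adjusted p = 0.209). Ndufb2, which shares its interval with 3 other genes, had a log2 fold change of -0.21 (SE 0.08, adjusted p = 0.200). In the proximal membrane arm, Ndufa11, Ndufa13 and Ndufc2 were lower. Ndufa11 and Ndufa13, the latter also known as GRIM-19, had log2 fold changes of -0.19 (SE 0.07, adjusted p = 0.182) and -0.18 (SE 0.07, adjusted p = 0.216). The CPM of Ndufc2 was 70.2, 77.9, 59.3 and 58.8 in NTG mice 7 to 10 and 58.2, 63.8, 57.1, 55.5 and 46.9 in vehicle-treated mice 16 to 20. Mouse 8 was the highest and mouse 20 the lowest, and the groups overlapped. Its log2 fold change was -0.24 (SE 0.10, 95% interval -0.47 to -0.007, unadjusted p = 0.0446, adjusted p = 0.250). This was the lowest fitted value among the 44 genes, and the highest was that of Ndufa10, of the proximal membrane arm, at 0.08 (SE 0.06, unadjusted p = 0.235, adjusted p = 0.567).

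Ndufa4 had a log2 fold change of -0.22 (SE 0.10, adjusted p = 0.277) and Ndufab1 of -0.08 (SE 0.05, adjusted p = 0.406). Of the 7 assembly factors, 6 were below 0 and 0 had an unadjusted p under 0.05 (background 8.05% lower). For Ndufaf6, NTG mice 7 to 10 had 6.74, 6.59, 6.60 and 6.72 CPM and vehicle-treated mice 16 to 20 had 6.09, 6.56, 6.16, 5.89 and 6.47 CPM. The NTG mice lay within a narrow range above all APP/PS1 mice. Counts of this gene were the lowest of the members, 443 to 671 per mouse, and the part of counting error in its values was not tested. This gave a log2 fold change of -0.10 (SE 0.07, 95% interval -0.24 to 0.05, unadjusted p = 0.187, adjusted p = 0.512).

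Single mice decided the count in this comparison. Without NTG mouse 7, the library highest in cerebellar markers, the number of members lower at an unadjusted p under 0.05 was 1 in place of 7. The number below 0 was 34 in place of 41 and the median log2 fold change was -0.07. The first of these numbers was also moved by other mice: without mouse 8 or mouse 20 it was 3, and without mouse 10 it was 14. Without mouse 16, the library with striatal markers, it was 9, with 40 members below 0 and a median of -0.095. DESeq2 and the fit without a filter on low counts each gave 11. Over all genes, the number at an unadjusted p under 0.05 in either direction was 3069. It was 2953 without mouse 7, 2678 without mouse 10 and 3324 in DESeq2.

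**Figure D3:**
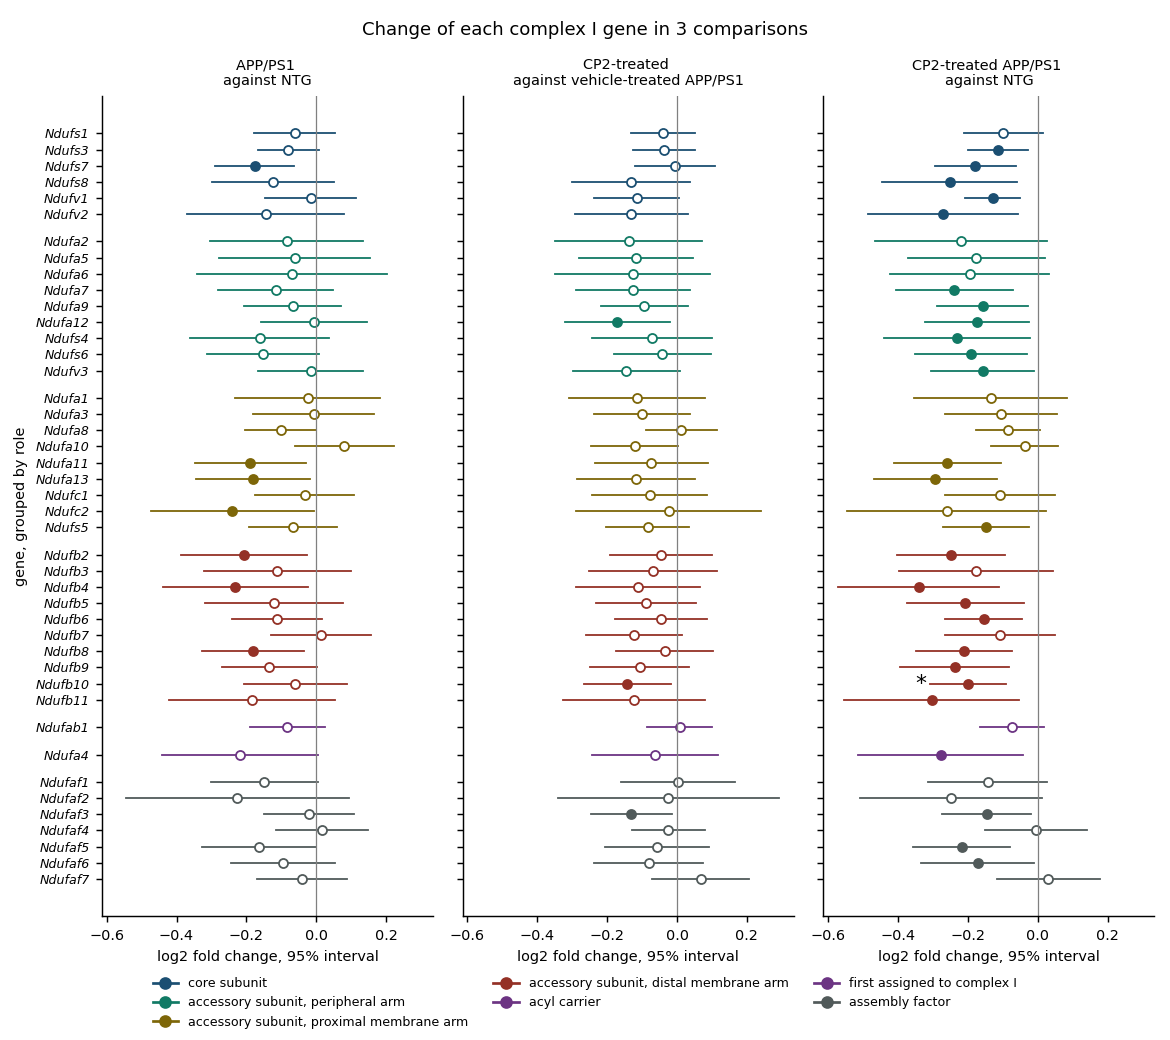
Log2 fold change of 43 of the 44 genes with its 95% interval in 3 comparisons, by role. Filled points have an unadjusted p under 0.05 and the asterisk marks the 1 adjusted p under 0.05, for Ndufb10 in CP2-treated APP/PS1 against NTG mice.

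The second comparison set CP2-treated beside vehicle-treated APP/PS1 mice and asked what 14 months of an inhibitor of complex I did to the genes of its target. No member passed the adjusted test in either direction, and most fitted changes were small and below 0. The log2 fold change was below 0 for 40 of 44 members (background 52.5% of 16407 genes), with a median of -0.08 for the members and -0.006 for all genes. At an unadjusted p under 0.05, 3 members were lower (background 3.66%) and 0 higher (background 2.88%). Adjusted over all genes, 0 of 44 were lower in edgeR, DESeq2 and limma-voom (background in edgeR 0.00609%, which is 1 gene). Of all genes, DESeq2 called 23 in either direction and limma-voom 1. CPM separated the groups for 0 members (background 0.616%). The 95% intervals of the 44 log2 fold changes lay between -0.35 and 0.29.

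The 3 members with an unadjusted p under 0.05 had different roles. Ndufb10 is a subunit of the distal membrane arm. Ndufb10 had 72.3, 73.7, 67.5, 60.8 and 66.2 CPM in vehicle-treated mice 16 to 20 and 61.1, 64.4, 64.2, 59.5 and 60.4 CPM in CP2-treated mice 21 to 25. Vehicle-treated mouse 19 lay among the CP2-treated mice, and the other vehicle-treated mice were above them. The difference was -0.14 on the log2 scale (SE 0.06, 95% interval -0.27 to -0.02, unadjusted p = 0.0285, adjusted p = 0.744). Ndufa12 is a subunit of the peripheral arm that takes the place of the assembly factor Ndufaf2 late in assembly. The CPM of Ndufa12 was 37.4, 43.2, 41.96, 39.2 and 35.8 in vehicle-treated mice 16 to 20 and 34.9, 39.96, 35.3, 33.4 and 32.5 in CP2-treated mice 21 to 25. The groups overlapped through CP2-treated mouse 22. By edgeR the log2 fold change came to -0.17 (SE 0.07, 95% interval -0.32 to -0.02, unadjusted p = 0.0287, adjusted p = 0.744). Ndufaf3 is an early assembly factor of the ubiquinone-binding module. For Ndufaf3, vehicle-treated mice 16 to 20 had 24.1, 25.5, 24.6, 24.6 and 22.5 CPM and CP2-treated mice 21 to 25 had 22.5, 23.4, 23.2, 21.4 and 20.6 CPM. Vehicle-treated mouse 20 lay within the CP2-treated group. Its log2 fold change was -0.13 (SE 0.05, 95% interval -0.25 to -0.02, unadjusted p = 0.0300, adjusted p = 0.744). Ndufaf3 shares its interval with Impdh2, and reads that overlap both were counted for each.

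By role, the median log2 fold change was -0.06 for core subunits, -0.13 for the peripheral arm, -0.08 for the proximal and -0.10 for the distal membrane arm and -0.03 for assembly factors. The core subunits with the lowest fitted values were Ndufs8 (-0.13, SE 0.08, adjusted p = 0.757), an iron-sulfur subunit, and Ndufv2 (-0.13, SE 0.07, adjusted p = 0.749) and Ndufv1 (-0.12, SE 0.05, adjusted p = 0.744), the pair at the NADH-binding tip. Ndufv1 had 138, 149.7, 132, 125 and 125 CPM in vehicle-treated mice 16 to 20 and 128, 124, 127, 121 and 120.3 CPM in CP2-treated mice 21 to 25. Vehicle-treated mice 16, 17 and 18 were above all CP2-treated mice, and mice 19 and 20 were among them. Ndufs7, the core subunit with the smallest p in the first comparison, had a log2 fold change of -0.006 (SE 0.05, 95% interval -0.12 to 0.11, adjusted p = 0.983). The highest fitted value was that of the assembly factor Ndufaf7, a methyltransferase, at 0.07 (SE 0.06, unadjusted p = 0.309, adjusted p = 0.8291). The CPM of Ndufa10 was 101, 118, 107, 96.2 and 101 in vehicle-treated mice 16 to 20 and 93.7, 95.02, 95.8, 102 and 95.04 in CP2-treated mice 21 to 25. Mouse 17 was the highest for this gene, a subunit related to nucleoside kinases, and the groups overlapped. This gave a log2 fold change of -0.12 (SE 0.06, 95% interval -0.24 to 0.002, unadjusted p = 0.0532, adjusted p = 0.744).

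This count also rested on single mice. Without mouse 17 or mouse 25 it was 0 in place of 3, and without mouse 18, 21 or 24 it was 1. Without mouse 22 it was 5, without mouse 23 it was 8 and without mouse 20 it was 11. Without mouse 16 it was 2, with 41 members below 0 and a median of -0.09. With ribosomal RNA as a covariate it was 0, with upper-quartile factors or all 3 groups in one fit 5. Over all genes, the unadjusted number in either direction was 1074. It was 782 without mouse 17, 696 without mouse 25, 1242 without mouse 20 and 727 with the covariate.

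The third comparison, CP2-treated APP/PS1 against NTG mice, joined both differences, the transgenes and the drug, which cannot be told apart here. Most fitted values of the members were below 0, and 1 gene, Ndufb10, fell by the adjusted test. The log2 fold change was below 0 for 43 of 44 members (background 50.6% of 16416 genes), with a median of -0.18 for the members and -0.002 for all genes. At an unadjusted p under 0.05, 27 members were lower (background 8.59%) and 0 higher (background 11.6%). Adjusted over all genes, 1 member was lower (background 1.46%), against 14 in DESeq2. DESeq2 also called more of all 16416 genes in either direction, 1670 against 989 in edgeR. CPM separated the groups for 6 members, all lower in CP2-treated APP/PS1 mice (background 3.30%): Ndufb10, Ndufa13, Ndufv1, Ndufb8, Ndufb6 and Ndufaf6. This comparison shares its NTG mice with the first and its CP2-treated mice with the second, so its values are not independent of theirs.

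For Ndufb10, NTG mice 7 to 10 had 71.7, 65.8, 76.7 and 69.8 CPM and CP2-treated mice 21 to 25 had 61.1, 64.4, 64.2, 59.5 and 60.4 CPM. The highest CP2-treated mouse was below the lowest NTG mouse, 8. The difference was -0.20 on the log2 scale (SE 0.05, 95% interval -0.31 to -0.09, unadjusted p = 0.00209, adjusted p = 0.0406). The gene (ENSMUSG00000040048) lies at chr17:24722060-24724478 on the minus strand and shares its interval with no other gene of the table. Its adjusted p passed 0.05 under 7 of 17 alternatives, with a range from 0.00381 to 0.114. The log2 fold change stayed between -0.23 and -0.16. The adjusted p was above 0.05 without mouse 7, 9, 10, 21, 22, 24 or 25. In the first comparison the log2 fold change of Ndufb10 was -0.06 (SE 0.07, adjusted p = 0.695) and in the second -0.14.

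In the distal membrane arm 8 of 10 members were lower at an unadjusted p under 0.05 (background 8.59%). Ndufb8 had 116, 108, 104 and 99.8 CPM in NTG mice 7 to 10 and 95.1, 97.6, 98.3, 86.7 and 82.97 CPM in CP2-treated mice 21 to 25. The groups did not overlap, by a gap of under 2 CPM. By edgeR the log2 fold change came to -0.21 (SE 0.06, 95% interval -0.35 to -0.07, unadjusted p = 0.00606, adjusted p = 0.0776). Ndufb8 shares its interval with Gm20538. The CPM of Ndufb6 was 47.9, 46.8, 44.4 and 45.6 in NTG mice 7 to 10 and 41.6, 43.1, 43.98, 40.9 and 37.9 in CP2-treated mice 21 to 25. Here too the separation was narrow. Its log2 fold change was -0.15 (SE 0.05, 95% interval -0.26 to -0.04, unadjusted p = 0.0105, adjusted p = 0.108). For Ndufb4, NTG mice 7 to 10 had 29.98, 26.2, 23.6 and 21.7 CPM and CP2-treated mice 21 to 25 had 19.4, 21.98, 22.4, 19.5 and 16.8 CPM. This gene had the lowest fitted value of the 44, and CP2-treated mice 22 and 23 were above NTG mouse 10. This gave a log2 fold change of -0.34 (SE 0.10, 95% interval -0.57 to -0.11, unadjusted p = 0.00778, adjusted p = 0.0908). Ndufb11, an X-linked subunit, had a log2 fold change of -0.30 (SE 0.11, adjusted p = 0.162), Ndufb2 of -0.25 (SE 0.07, adjusted p = 0.0662), Ndufb9 of -0.24 (SE 0.07, adjusted p = 0.0813) and Ndufb5 of -0.21 (SE 0.08, adjusted p = 0.156). The 2 members of this arm with larger p were Ndufb3 (-0.18, SE 0.10) and Ndufb7 (-0.11, SE 0.07).

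Among the core subunits, Ndufv1, Ndufs7, Ndufs3, Ndufs8 and Ndufv2 were lower at an unadjusted p under 0.05 (background 8.59%). Ndufs1, the largest iron-sulfur subunit, had a log2 fold change of -0.10 (SE 0.05, unadjusted p = 0.0841, adjusted p = 0.321). Ndufv1 had 137, 132, 139 and 135 CPM in NTG mice 7 to 10 and 128, 124, 127, 121 and 120.3 CPM in CP2-treated mice 21 to 25. All CP2-treated mice were below all NTG mice for this flavin-binding subunit. The difference was -0.13 on the log2 scale (SE 0.04, 95% interval -0.21 to -0.05, unadjusted p = 0.00436, adjusted p = 0.0635). Ndufs7 had a log2 fold change of -0.18 (SE 0.05, adjusted p = 0.0771) and Ndufs3 of -0.11 (SE 0.04, adjusted p = 0.131). Both belong to the module that binds ubiquinone. Ndufs8 and Ndufv2 had the lowest fitted values of the core, -0.25 (SE 0.09, adjusted p = 0.135) and -0.27 (SE 0.10, adjusted p = 0.145), and their SDs among NTG mice were 0.15 and 0.22 on the log2 scale.

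**Figure D4:**
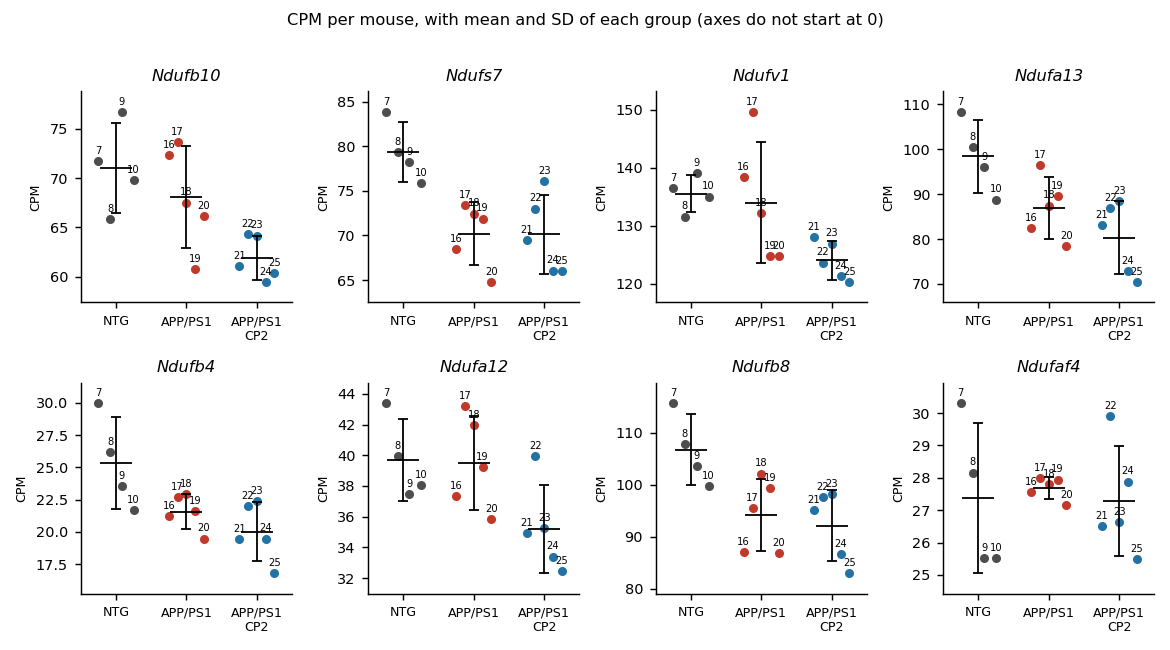
CPM in each mouse (points, with the mouse's number) and the mean and SD of each group for 8 genes. Ndufb10, Ndufv1, Ndufa13 and Ndufb8 separate CP2-treated APP/PS1 from NTG mice, Ndufs7 separates vehicle-treated APP/PS1 from NTG mice, Ndufb4 and Ndufa12 overlap between all groups, and Ndufaf4 differs little between group means. The CPM axes do not start at 0.

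In the proximal membrane arm 3 of 9 members were lower at an unadjusted p under 0.05 (background 8.59%), Ndufa11, Ndufa13 and Ndufs5. The CPM of Ndufa13 was 108, 101, 95.99 and 88.8 in NTG mice 7 to 10 and 83.1, 86.9, 88.5, 72.9 and 70.4 in CP2-treated mice 21 to 25. The groups met closely, at NTG mouse 10 and CP2-treated mouse 23, without overlap. By edgeR the log2 fold change came to -0.29 (SE 0.08, 95% interval -0.47 to -0.12, unadjusted p = 0.00367, adjusted p = 0.0571). Ndufa13 shares its interval with Yjefn3 and Tssk6. For Ndufa11, NTG mice 7 to 10 had 70.7, 67.9, 64.6 and 60.7 CPM and CP2-treated mice 21 to 25 had 54.97, 59.05, 60.98, 51.8 and 48.97 CPM. The groups overlapped by 1 CP2-treated mouse, 23. Its log2 fold change was -0.26 (SE 0.07, 95% interval -0.41 to -0.10, unadjusted p = 0.00352, adjusted p = 0.0556). Ndufs5 had -0.15 (SE 0.06, adjusted p = 0.163). The values of Ndufa1, Ndufa3, Ndufa8, Ndufc1 and Ndufc2 lay between -0.26 (Ndufc2, adjusted p = 0.292) and -0.08 (Ndufa8, adjusted p = 0.288). Ndufa10, whose fitted value was above 0 in the first comparison, had -0.04 (SE 0.04, 95% interval -0.13 to 0.06, adjusted p = 0.699). In the peripheral arm 6 of 9 members were lower at an unadjusted p under 0.05 (background 8.59%). Their log2 fold changes ran from -0.24 for Ndufa7 (SE 0.08, adjusted p = 0.101) to -0.16 for Ndufa9 (SE 0.06, adjusted p = 0.162) and Ndufv3 (SE 0.07, adjusted p = 0.214). Ndufs4 and Ndufa12 were among the 6, at -0.23 (SE 0.09, adjusted p = 0.201) and -0.17 (SE 0.07, adjusted p = 0.172), and Ndufs6 was at -0.19 (SE 0.07, adjusted p = 0.166). The other 3, Ndufa2, Ndufa5 and Ndufa6, had similar fitted values with wider errors, such as -0.22 for Ndufa2 (SE 0.11, adjusted p = 0.305).

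Ndufa4 was lower by a log2 fold change of -0.28 (SE 0.11, adjusted p = 0.173) and Ndufab1 by -0.07 (SE 0.04, adjusted p = 0.367). Assembly factors had a wide range of fitted values. Ndufaf5, which modifies Ndufs7, had -0.22 (SE 0.06, adjusted p = 0.0726), Ndufaf6 -0.17 (SE 0.07, adjusted p = 0.217) and Ndufaf3 -0.15 (SE 0.06, adjusted p = 0.187). Ndufaf2, which the complex exchanges for Ndufa12, had -0.25 (SE 0.12, adjusted p = 0.269) and Ndufaf1 -0.14 (SE 0.08, adjusted p = 0.336). Ndufaf6 had 6.74, 6.59, 6.60 and 6.72 CPM in NTG mice 7 to 10 and 5.28, 5.99, 6.27, 5.97 and 6.06 CPM in CP2-treated mice 21 to 25. All CP2-treated mice were below these NTG mice, which are the same mice as in the first comparison. Ndufaf4 and Ndufaf7 had log2 fold changes near 0, -0.004 (SE 0.07, 95% interval -0.15 to 0.14) and 0.03 (SE 0.07, 95% interval -0.12 to 0.18). The CPM of Ndufaf4 was 30.3, 28.2, 25.5 and 25.5 in NTG mice 7 to 10 and 26.5, 29.9, 26.6, 27.9 and 25.5 in CP2-treated mice 21 to 25. Mice of both groups were spread over the same range.

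The count of 27 was 14 without NTG mouse 7, with 43 members below 0 and a median log2 fold change of -0.13, and it was between 20 and 35 without any other single mouse. The adjusted count of 1 was 0 without mouse 7, 9, 21, 24 or 25, 2 without mouse 10 and 7 without mouse 23. It was 0 with all 3 groups in one fit or with ribosomal RNA as a covariate, and 2 in limma-voom. Over all genes, the adjusted number in either direction was 989, with 572 without mouse 9 and 1123 without mouse 23. It was 703 with all 3 groups in one fit, 752 with the covariate and 1274 in limma-voom. The unadjusted number over all genes was 3312, and 3433 without mouse 7.

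Genes around complex I were read from lists of their own. They were read in the main fit only, and not under the alternatives or without single mice. Of the 38 nuclear subunits of complexes II to V, the log2 fold change was below 0 for 37 in APP/PS1 against NTG (median -0.12), for 35 in CP2-treated against vehicle-treated APP/PS1 (median -0.08) and for all 38 in treated APP/PS1 against NTG mice (median -0.20). At an unadjusted p under 0.05, 9, 2 and 30 of them were lower (background 8.05%, 3.66% and 8.59% of all genes). None was higher (background 10.6%, 2.88% and 11.6%). In the last comparison 2 were lower by the adjusted test (background 1.46%). They were Cyc1 (cytochrome c1, -0.16, SE 0.04, adjusted p = 0.0425) and Cox8a (a cytochrome c oxidase subunit, -0.23, SE 0.06, adjusted p = 0.0372). The counts and medians of the complex I genes lay beside these, and no test of a difference between the sets was made.

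Of 10 further complex I assembly genes outside the naming rule, 1 was lower by the adjusted test in APP/PS1 against NTG mice (background 1.34%). Tmem70, which acts in the assembly of complex I and of ATP synthase, had 38.9, 36.6, 30.1 and 33.1 CPM in NTG mice 7 to 10, 24.2, 27.5, 27.2, 26.2 and 26.6 CPM in vehicle-treated mice 16 to 20, and 25.3, 25.7, 31.0, 27.5 and 28.1 CPM in CP2-treated mice 21 to 25. All vehicle-treated APP/PS1 mice were below all NTG mice. The log2 fold change was -0.40 (SE 0.08, adjusted p = 0.0133) in APP/PS1 against NTG, 0.06 (SE 0.06, adjusted p = 0.847) in CP2-treated against vehicle-treated APP/PS1 and -0.33 (SE 0.08, adjusted p = 0.0370) in CP2-treated APP/PS1 against NTG mice. The list as a whole had medians of -0.04, -0.01 and -0.05 in these comparisons. At an unadjusted p under 0.05, 2, 0 and 2 of its genes were lower (background 8.05%, 3.66% and 8.59%). The other gene was Ecsit in the first and Tmem261 in the third.

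The adjusted test called 1.34% of all genes lower in the first comparison and 1.46% in the third. Of 8 regulators of nuclear respiratory genes, 1 passed it, Esrra, which encodes the nuclear receptor ERR alpha. Its CPM was 58.2, 60.03, 58.5 and 57.7 in NTG mice 7 to 10, 53.5, 47.6, 50.4, 49.98 and 48.4 in vehicle-treated mice 16 to 20 and 50.7, 52.8, 51.7, 49.8 and 49.1 in CP2-treated mice 21 to 25. Every NTG mouse was above every APP/PS1 mouse of either group. The log2 fold change was -0.23 (SE 0.04, adjusted p = 0.0129) in APP/PS1 against NTG, 0.02 (SE 0.04, adjusted p = 0.931) in CP2-treated against vehicle-treated APP/PS1 and -0.21 (SE 0.04, adjusted p = 0.00893) in CP2-treated APP/PS1 against NTG mice. Ppargc1a, the coactivator PGC-1 alpha, had -0.14 (SE 0.07, adjusted p = 0.340), 0.11 (SE 0.07, adjusted p = 0.762) and -0.02 (SE 0.05, adjusted p = 0.896) in these comparisons. The 8 genes had medians of -0.04, 0.04 and -0.02. Besides Esrra only Pprc1, a coactivator related to PGC-1 alpha, had an unadjusted p under 0.05. Its log2 fold change was 0.21 (SE 0.06, adjusted p = 0.0915) in CP2-treated APP/PS1 against NTG mice (background 11.6% higher).

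Marker genes of cell types moved with the groups as well. In bulk tissue, fewer cells of a type and less RNA per cell cannot be told apart. All 6 microglial markers were higher in APP/PS1 than in NTG mice by the adjusted test, and their summed level was 300.4 to 318 CPM in NTG, 564 to 739 CPM in vehicle-treated and 462 to 695 CPM in CP2-treated mice with the transgenes. The 10 neuronal markers had summed levels of 6791 to 7433, 6463 to 7103 and 6682 to 7461 CPM, which overlapped, and NTG mouse 7, the highest in complex I genes, had the lowest neuronal sum of its group. The same mouse had the lowest sum of the 7 cortical and hippocampal markers among NTG mice (2649.8 CPM, up to 3813 CPM in the others). It had the highest cerebellar sum (273 CPM, against 24.3 to 123 CPM in the other mice), the highest oligodendrocyte sum (7532 CPM over 6 markers, down to 4585 CPM in mouse 16) and the highest Pvalb (193 CPM, 86.5 CPM or less in the others). The median log2 fold change of the neuronal markers was -0.04, 0.05 and -0.004 in the first, the second and the third comparison. The summed level of the 6 astrocyte markers was 3828 to 4583 CPM in NTG, 3333 to 3812 CPM in vehicle-treated and 3575 to 3850 CPM in CP2-treated mice. Of these, 1 was lower by the adjusted test in APP/PS1 against NTG mice, and 2 were lower and 1 higher in CP2-treated APP/PS1 against NTG mice. Of 5 endothelial markers, 1 and 4 were higher in these comparisons. The adjusted test called 1.34% and 1.46% of all genes lower in them, and 712 of 16417 and 749 of 16416 higher. The 3 markers of parvalbumin interneurons summed to 471 to 545, 316.5 to 438 and 422 to 464 CPM in the groups, and the 6 thalamic markers to 372 to 558, 195 to 433 and 369.6 to 566 CPM. The share of ribosomal RNA was 4.72 to 7.50% in NTG, 2.40 to 5.51% in vehicle-treated and 4.49 to 7.40% in CP2-treated mice. The part of cell composition in the levels of complex I genes was not tested.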

How the data were processed

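RNA from brain tissue (a section through hippocampus and cortex) of 14 female mice was sequenced in pairs of reads. The authors ran the MAP-RSeq pipeline, aligned reads to mm10 with TopHat2 and deposited whole-number counts per gene from featureCounts (Subread), in which a read was counted for each gene it overlapped. They also deposited RPKM values, normalised to length and library. The strand setting is not given in the sources used here. Genes of the mitochondrial chromosome had no counts.

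Groups came from the labels, with 1 mouse per library. Genes with a robust CPM above 1 in every mouse of at least 1 group were tested by edgeR 4.0.16 (quasi-likelihood test, TMM factors, R 4.3.3), with 2 groups in each fit and Benjamini-Hochberg adjustment over all genes tested. Both p and adjusted p were read at 0.05, and intervals are 95% intervals. The unit was the mouse. Total counts were 70548781 or more per mouse, and counting error was not separated from the spread between mice. Alternatives used DESeq2 1.42.0, limma 3.58.1 (voom with quality weights), RLE and upper-quartile factors, no filter, a minimum of 10 counts, all 3 groups in one fit, ribosomal RNA as a covariate, and each mouse left out in turn. Scripts were tested on simulated data.

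Members were taken by name, and the members and lists were chosen with earlier results of these data known. The rule for genes given in detail took each member with an adjusted p under 0.05, up to 20 with an unadjusted p under 0.05, the 7 core subunits, the 3 highest and 3 lowest by RPKM and the extremes of each comparison. The values of 1 member are not reported here, though it is in the counts and medians. Members outside it, such as Ndufaf3, Ndufb3, Ndufb7, Ndufs4, Ndufs6 and Ndufv3, and Ppargc1a, Pprc1, Ecsit and Tmem261 were named after their values were seen, and the motif TATAAA was added to the motifs searched. Promoter windows are RefSeq sequence, matched by symbol for 39 of 44 members. Of the members, 14 share an interval with another gene of the table, 11 of them with one on the other strand, so that reads from these pairs cannot be told apart without strand.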

Additional observations from a re-analysis of the deposited data

Results flagged for a closer look

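In 3 of the 135 groups of mice examined, 1 mouse stood apart from the rest of its group, where chance gives about 1 in 20, or 6.8. Ndufs4, an accessory subunit of the peripheral arm, was at 40.1 CPM in vehicle-treated APP/PS1 mouse 20 and at 46.95 to 48.86 CPM in the other 4 mice of the group. Ndufa1, of the proximal membrane arm, was at 35.87 CPM in the same mouse and at 43.26 to 45.54 CPM in the others. Ndufa10 was at 102.2 CPM in CP2-treated mouse 24, above the 93.67 to 95.77 CPM of the other 4.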

How the results depend on the processing

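The median log2 fold change of the 44 genes stayed below 0 in each alternative, from -0.13 to -0.07 for APP/PS1 against NTG, from -0.12 to -0.06 for CP2-treated against vehicle-treated APP/PS1 and from -0.22 to -0.13 for CP2-treated APP/PS1 against NTG mice. For APP/PS1 against NTG mice, the number lower at an unadjusted p under 0.05, 7, became 11 with DESeq2 and 11 without a filter, and with a mouse left out it lay between 1 (mouse 7) and 14 (mouse 10). The adjusted number, 0, was 1 with DESeq2. For CP2-treated against vehicle-treated mice, the number lower at an unadjusted p, 3, was 5 with upper-quartile factors, 5 with all 3 groups in one fit and 0 with the ribosomal RNA covariate, and ranged from 0 (without mouse 17 or 25) to 11 (without mouse 20). For CP2-treated APP/PS1 against NTG mice, the unadjusted number, 27, ranged from 14 (without mouse 7) to 35 (without mouse 10). The adjusted number, 1, was 14 with DESeq2, 2 with limma-voom, 0 with all 3 groups in one fit and 0 with the ribosomal RNA covariate, and ranged from 0 (without mouse 7, 9, 21, 24 or 25) to 7 (without mouse 23). Without a filter the 1 gene was Ndufa13, and Ndufb10 had an adjusted p of 0.0560. Numbers called over all genes also moved with these settings, as given above. The cause of these differences was not tested. Genes of the other lists were not followed under the alternatives. Single members were followed only where their unadjusted p was under 0.05 in the main fit, so their direction was largely set beforehand. Of these 632 values, 597 kept their direction and side of the adjusted threshold, 25 passed it newly, 10 lost it and 0 changed direction. Only Ndufb10 was past the threshold in the main fit, so all 10 losses were its own. Most of the 597 were genes that stayed above an adjusted p of 0.05. No paired analysis was possible because the labels give no litter. The paper describes the NTG mice as littermates, and the replicate numbers only number the libraries.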
